A study of Mus musculus with 30 samples.

Results

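WNT ligands are secreted proteins that carry signals between the ectoderm and the mesenchyme of the limb bud. The 10 ligand genes described here are *Wnt2*, *Wnt2b*, *Wnt3*, *Wnt4*, *Wnt5a*, *Wnt5b*, *Wnt6*, *Wnt7a*, *Wnt7b* and *Wnt11*, chosen by their symbols from the 50833 genes of the count table. All 10 had counts and passed the filter on low values in every comparison. The other 9 WNT genes of the mouse (*Wnt1*, *Wnt3a*, *Wnt8a*, *Wnt8b*, *Wnt9a*, *Wnt9b*, *Wnt10a*, *Wnt10b* and *Wnt16*) are given only for comparison. RNA was taken from forelimb buds of wild-type Swiss Albino mouse embryos. Mothers had received an intraperitoneal injection of DMSO or of Wnt-C59 (C59) at embryonic stage E10.5. Per the paper's methods, controls received DMSO in PBS. C59, dissolved in DMSO, was diluted in PBS with methylcellulose, Tween and DMSO. The vehicles thus differed, and their part in the results was not tested. Limb buds were collected 1, 6, 12, 18 and 24 h later, with 3 libraries in each of the 10 groups (C59 1 h, DMSO 1 h and so on). By the paper's methods, each library held the RNA of 1 pair of forelimb buds, so that ectoderm, mesenchyme, vessels and blood were measured together.

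The 30 libraries held 18188636 to 38974885 counts (median 21597120). All 30 pairs of libraries within a group differed beyond the noise of counting. C59 18 h replicate 3 had the highest FPKM of its group for *Wnt6* (23.3) and *Wnt11* (55.5). The tests of the ligand genes at 18 h are also given without it, while summed levels and other genes include it. The sexes of the embryos were not balanced. Together, 4 Y-linked genes had 0.0469 to 9.03 FPKM in DMSO and 21.2 to 38.2 FPKM in C59 at 1 h, and 0 in DMSO and 19.8 to 33.2 FPKM in C59 at 6 h, and the part of sex in the results at these times cannot be told apart from the treatment. At 24 h they had 19.3 to 25.0 FPKM in C59 and 0.0147 to 20.1 FPKM in DMSO, so the groups were not balanced then either, and at 12 and 18 h both groups spanned low and high values. The 10 ligand genes lie on autosomes. *Axin2*, a direct target of canonical WNT signaling, stood in C59 at 28.2 CPM ± 1.51 (SD, n = 3) against 110 CPM ± 6.82 in DMSO at 6 h, and at 105 CPM ± 7.53 against 112 CPM ± 5.41 at 24 h. CPM are counts scaled to a common library size with TMM factors. By the paper's methods each library held the RNA of 1 embryo, and p-values then measure the spread between embryos. The highest Y-linked sum in DMSO at 1 h, 9.03 FPKM, lay between the low and high values of other groups, and its source was not tested. The injection was given to the mother, and the library labels do not name litters. The paper's section on embryo collection states that the replicates of a condition and time came from at least 3 litters. Its section on RNA sequencing names no litters.

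Before a WNT protein leaves the cell, the membrane enzyme porcupine attaches a lipid to a serine that all vertebrate WNT ligands share, and the carrier Wntless needs that lipid to take the ligand to the cell surface. C59 inhibits porcupine, so it acts on the proteins that these genes encode and not on the genes themselves. On receiving cells, ligands bind Frizzled receptors with LRP co-receptors, which stabilizes β-catenin (the canonical pathway), or with ROR and related receptors (non-canonical pathways). In the limb bud, *Wnt3*, *Wnt4*, *Wnt6*, *Wnt7a* and *Wnt7b* are known as ectodermal ligand genes and *Wnt5a* and *Wnt11* as mesenchymal ones. This grouping is background, because these whole limb buds do not tell where a transcript came from. The paper also shows *Wnt2* and *Wnt2b* expressed in the interdigit mesenchyme, and they are described apart from this grouping.

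The site of the lipid is shown first, since it is the point at which the treatment meets these genes. In the GENCODE M21 coding sequences (GRCm38, the assembly called mm10), a run of 8 codons for cysteine, histidine, glycine, any residue, serine, glycine, serine and cysteine occurred once in each of the 10 genes. The 24 bases are written 5′ to 3′ on the coding strand, with the codon of the acylated serine in capitals.
Wnt3: tgccacgggttgTCCggcagctgc
Wnt4: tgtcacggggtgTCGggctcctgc
Wnt6: tgccatgggcttTCGggttcctgc
Wnt7a: tgccatggtgtgTCAggctcctgt
Wnt7b: tgtcacggtgtgTCAggctcctgt
Wnt5a: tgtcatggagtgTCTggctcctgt
Wnt5b: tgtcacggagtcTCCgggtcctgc
Wnt11: tgccatggggtgTCTggctcctgc
Wnt2: tgtcatggtgtgAGTggctcctgt
Wnt2b: tgtcacggtgtgAGTggctcctgt

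The acylated serine was codon 212 in *Wnt2*, *Wnt3* and *Wnt4*, 206 in *Wnt7a*, 213 in *Wnt7b*, 215 in *Wnt11*, 227 in *Wnt6*, 236 in *Wnt5b*, 241 in *Wnt2b* and 244 in *Wnt5a*. *Wnt2* and *Wnt2b* spelled it AGT, and the other 8 genes used a TCN codon. Taking *Wnt3* as the reference, the 24 bases differed at 5 positions in *Wnt4* and *Wnt11* and at 10 in *Wnt2*, although the residues written above were the same. In each gene the site lay within 1 exon, the last in *Wnt4* (chr4:137296345-137296368, exon 5 of 5), *Wnt5a* (chr14:28522515-28522538, exon 5 of 5), *Wnt5b*, *Wnt6*, *Wnt7a* and *Wnt7b* (chr15:85537812-85537835, exon 4 of 4). In *Wnt3* (chr11:103812314-103812337), *Wnt11* (chr7:98850260-98850283), *Wnt2* and *Wnt2b* it lay in exon 4 of 5. The genes are on chromosomes 1 (*Wnt6*), 3 (*Wnt2b*), 4, 6 (*Wnt2*, *Wnt5b* and *Wnt7a*), 7, 11, 14 and 15.

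To rank the ligand genes against each other, levels were compared per transcript length, as FPKM, which divides fragments by transcript length and library size. *Wnt5a*, which signals mainly without β-catenin and drives limb elongation, was the highest of the 10 at 29.9 ± 1.18 FPKM (SD, n = 3) in DMSO at 1 h. At that time *Wnt6* followed with 14.5 ± 1.35 FPKM, *Wnt5b* with 10.7 ± 0.948 FPKM and *Wnt11* with 9.88 ± 2.28 FPKM. The ranges of *Wnt5b* and *Wnt11* over the 3 libraries overlapped, while *Wnt5a*, *Wnt6* and *Wnt5b* were separated from each other. *Wnt7b* was at 4.72 ± 0.0352 FPKM and *Wnt3* at 3.11 ± 0.353 FPKM. *Wnt7a* (2.54 ± 0.617 FPKM) overlapped with *Wnt3* above it and with *Wnt4* (2.37 ± 0.683 FPKM) below it. *Wnt2* (0.578 ± 0.339 FPKM) and *Wnt2b* (0.517 ± 0.0490 FPKM) closed the order and overlapped.

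By 24 h in DMSO *Wnt11* had moved to the 2nd place at 42.0 ± 0.283 FPKM, below *Wnt5a* at 52.4 ± 2.09 FPKM and well above *Wnt6* at 15.04 ± 1.09 FPKM. *Wnt4* (5.12 ± 0.288 FPKM) then stood above *Wnt3* (3.72 ± 0.1999 FPKM) without overlap. In C59 at 24 h *Wnt11* (49.1 ± 2.98 FPKM) and *Wnt5a* (45.7 ± 6.12 FPKM) overlapped at the top. The place of *Wnt11* depends on the length it is divided by: with counts per kilobase of all annotated exons it was 3rd in DMSO at 24 h and 4th at 1 and 12 h, and 63% of the 100 ranks (10 genes in 10 groups) were the same on both scales. *Wnt5a* ranked 1st by FPKM in 9 of the 10 groups and by the other scale in all 10.

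Summed over the 10 genes, ligand RNA in DMSO was 78.8 FPKM at 1 h (range 75.5 to 85.0), 108 FPKM after 12 h (104 to 111) and 146 FPKM after 24 h (145 to 148). In C59 the sum was 92.2 FPKM at 6 h (90.6 to 93.7, against 94.1 to 101 in DMSO) and 144 FPKM after 12 h (130 to 165). It was 152 FPKM at 18 h (142 to 170, against 119 to 132) and 159 FPKM at 24 h (156 to 163). The C59 range thus lay below the DMSO range at 6 h and above it at 12, 18 and 24 h. *Wnt5a* gave 37.9% of the DMSO sum at 1 h and 35.9% at 24 h, while the share of *Wnt11* was 12.5% and then 28.8%. Without *Wnt5a* the sum at 12 h was 80.0 to 101 FPKM in C59 against 61.0 to 65.1 FPKM in DMSO.

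**Figure D1:**
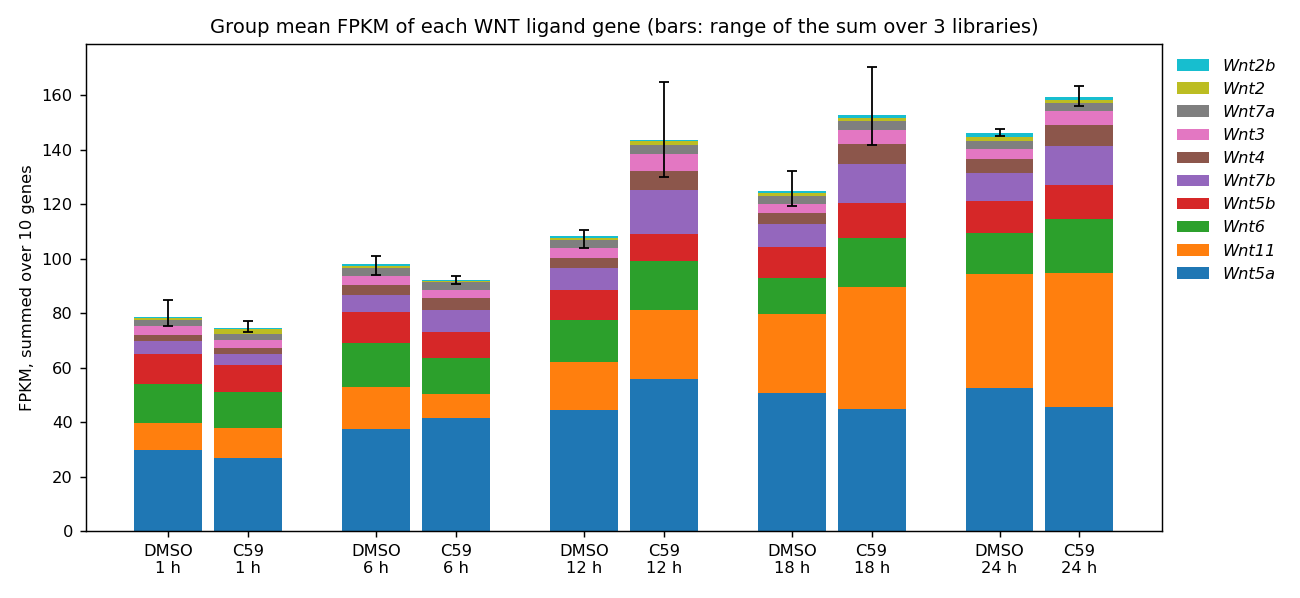
Stacked bars give the group mean FPKM of the 10 ligand genes for DMSO and C59 at each time after injection, and black bars span the lowest and highest sum of the 3 libraries. *Wnt5a* and *Wnt11* fill most of each bar, and the C59 sum at 12 h (144 FPKM) stands above that of DMSO (108 FPKM).

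To ask how ligand transcription answered the block of ligand release, C59 was compared with DMSO at each time with edgeR's quasi-likelihood test over 13076 to 13675 protein-coding genes. A gene passed where p, adjusted by the method of Benjamini and Hochberg, was below 0.05, and it was called where its log2 fold change also exceeded 1 in either direction. At 1 h 1 of the 10 ligand genes passed, higher in C59, where 2.75% of all tested genes did. At 6 h 7 ligand genes passed, 3 higher and 4 lower (19.6% of all genes). By 12 h 6 passed, 5 higher and 1 lower (47.5% of all genes), which is near the share of all genes at that time. Of the later times, 18 h had 4 (7.08% of all genes) and 24 h also 4 (6.44% of all genes), and these were higher in C59. The members' median log2 fold changes at the 5 times, in order, were -0.08, -0.26, 0.36, 0.35 and 0.18, and the medians of all genes lay between 0.00 and 0.02. Only *Wnt2* at 1 h and *Wnt2b* at 6 h were called, and no member was called at 12, 18 or 24 h. Over all genes the called shares at the 5 times were 0.283%, 1.17%, 4.95%, 1.29% and 0.819%.

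**Figure D2:**
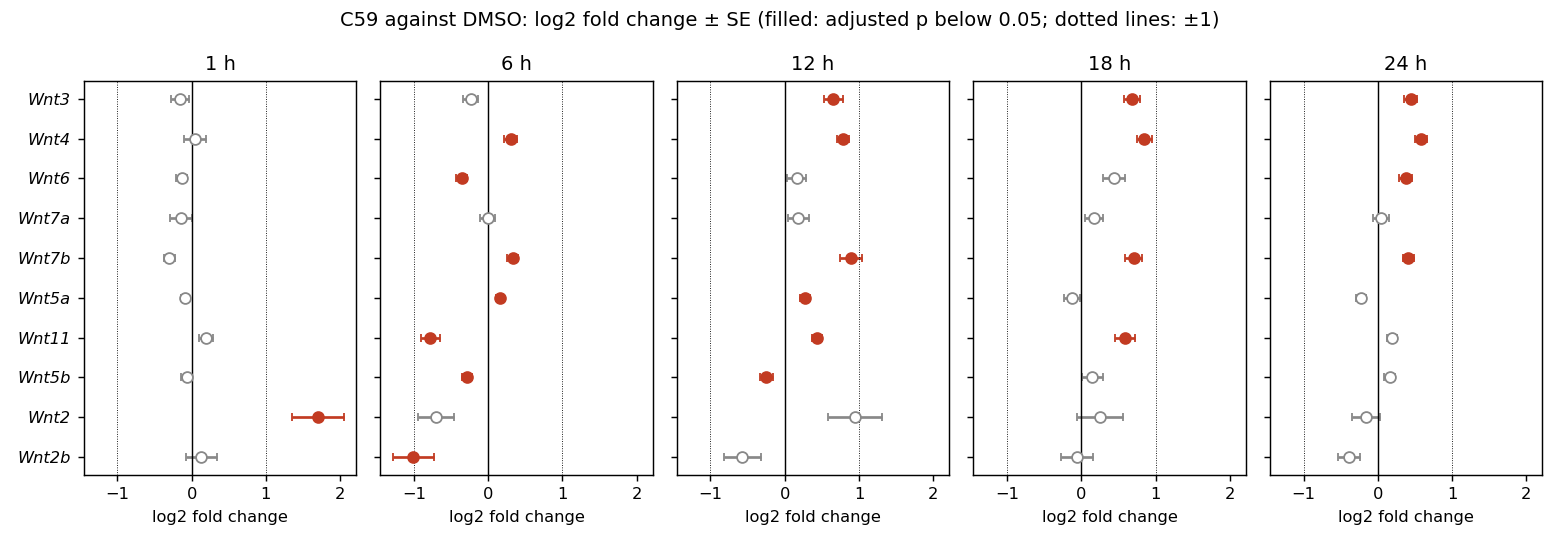
Points are log2 fold changes of C59 against DMSO with their SE for the 10 ligand genes at 5 times, filled where the adjusted p of edgeR was below 0.05, and dotted lines mark log2 fold changes of -1 and 1. *Wnt3*, *Wnt4* and *Wnt7b* lie to the right of 0 and are filled at 12, 18 and 24 h, while *Wnt11* lies at -0.78 at 6 h and at 0.44 at 12 h.

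Among the ectodermal ligand genes, *Wnt3*, *Wnt4* and *Wnt7b* were higher in C59 limb buds at 12, 18 and 24 h. *Wnt7b* (ENSMUSG00000022382, chr15:85535437-85582473, minus strand), a ligand gene of surface epithelia that is also needed in lung growth, had the largest log2 fold change of the 3 at 12 h. Its C59 libraries were then at 47.3, 57.5 and 76.0 CPM and its DMSO libraries at 30.3, 31.2 and 36.0 CPM, without overlap. The log2 fold change was 0.89 ± 0.15 (SE; edgeR, adjusted p 0.000565), and 0.71 without C59 12 h replicate 3, the highest library (adjusted p 0.000381). At 1 h the order was the opposite, with C59 at 15.5, 15.7 and 15.4 CPM and DMSO at 19.1, 19.2 and 19.1 CPM (-0.30 ± 0.08, edgeR, adjusted p 0.0625), which did not pass. At 6 h *Wnt7b* already stood above DMSO, at 31.9, 35.2 and 31.3 CPM against 25.5, 26.5 and 26.1 CPM (0.33 ± 0.07, edgeR, adjusted p 0.00463). The gap was 0.71 ± 0.11 at 18 h (edgeR, adjusted p 0.00971) and 0.41 ± 0.07 at 24 h (edgeR, adjusted p 0.00639). At 18 h *Wnt7b* did not pass without DMSO 18 h replicate 1 (0.68, adjusted p 0.0568) or replicate 2 (0.68, adjusted p 0.0541), and it did without C59 18 h replicate 3 (0.60, adjusted p 0.00160).

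*Wnt4* (ENSMUSG00000036856, chr4:137277489-137299726, plus strand), best known from kidney tubules, the ovary and later the joints of the digits, rose at 6 h and remained above DMSO to the end of the course. At 6 h its C59 libraries were at 22.1, 22.7 and 26.4 CPM and its DMSO libraries at 17.8, 19.8 and 19.95 CPM (0.30 ± 0.09, edgeR, adjusted p 0.0266). That rise did not pass without DMSO 6 h replicate 1 (0.25, adjusted p 0.0954) or C59 6 h replicate 3 (0.23, adjusted p 0.116). At 12 h the groups were far apart, with 35.8, 37.2 and 39.6 CPM in C59 and 21.1, 23.9 and 20.4 CPM in DMSO. The log2 fold change was 0.78 ± 0.08 at that time (edgeR, adjusted p 1.93e-05), then 0.85 ± 0.11 at 18 h (edgeR, adjusted p 0.00369) and 0.58 ± 0.08 by 24 h (edgeR, adjusted p 0.000982). At 24 h C59 libraries held 41.6, 39.4 and 41.1 CPM and DMSO libraries 29.3, 25.9 and 26.8 CPM. No C59 library of *Wnt4* from 6 h on reached down to the DMSO range of its time. Without C59 18 h replicate 3 the value at 18 h was 0.77 (adjusted p 0.000617).

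*Wnt3* (ENSMUSG00000000125, chr11:103774150-103817957, plus strand), which acts through β-catenin and is required in the ectoderm to form the apical ridge, first stood below DMSO and then above it. At 6 h C59 libraries were at 13.7, 10.7 and 12.8 CPM, all below the DMSO libraries at 14.8, 14.3 and 14.7 CPM, but the difference did not pass (-0.24 ± 0.10, edgeR, adjusted p 0.128). At 12 h the C59 libraries were at 19.1, 23.6 and 27.7 CPM and the DMSO libraries at 14.3, 15.6 and 14.99 CPM (0.65 ± 0.12, edgeR, adjusted p 0.00154). At 18 h the C59 libraries lay closest together, at 20.5, 20.5 and 21.1 CPM, against 12.5, 12.8 and 13.9 CPM in DMSO. The log2 fold change at 18 h was 0.68 ± 0.10 (edgeR, adjusted p 0.00710), and leaving out C59 18 h replicate 3 gave 0.67 (adjusted p 0.00288). At 24 h it was 0.44 ± 0.09 (edgeR, adjusted p 0.0156), which did not pass without DMSO 24 h replicate 1 (0.45, adjusted p 0.0637) or replicate 2 (0.40, adjusted p 0.0755).

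*Wnt6* (ENSMUSG00000033227, chr1:74771892-74785322, plus strand), an ectodermal ligand gene with the 2nd or 3rd highest FPKM of the family in every group, fell at 6 h and passed as higher at 24 h. Its C59 libraries at 6 h held 36.4, 34.2 and 37.1 CPM and its DMSO libraries 45.8, 42.0 and 50.1 CPM, without overlap (-0.36 ± 0.07, edgeR, adjusted p 0.00299). At 12 h C59 libraries were at 40.8, 44.9 and 60.7 CPM against 41.8, 43.6 and 45.8 CPM in DMSO, and the groups overlapped (0.16 ± 0.12, edgeR, adjusted p 0.308). The highest library decided that value, since it was -0.02 without C59 12 h replicate 3 (adjusted p 0.867). At 18 h the value was 0.44 ± 0.15 (edgeR, adjusted p 0.115), with C59 at 41.5, 45.7 and 60.8 CPM above DMSO at 38.8, 33.7 and 38.4 CPM. It was 0.26 without C59 18 h replicate 3, the highest library (adjusted p 0.0782), and it passed with a spread shared by all 30 libraries (adjusted p 0.0106). At 24 h it was 0.37 ± 0.09 (edgeR, adjusted p 0.0237), with 57.8, 48.6 and 51.1 CPM in C59 and 37.4, 41.9 and 42.6 CPM in DMSO. The rise at 24 h did not pass without DMSO 24 h replicate 1 (0.32, adjusted p 0.126), replicate 2 (0.40, adjusted p 0.0606) or replicate 3 (0.41, adjusted p 0.0580).

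*Wnt7a* (ENSMUSG00000030093, chr6:91363981-91411363, minus strand), the ligand gene of dorsal ectoderm that sets dorsal identity through *Lmx1b* in the mesenchyme below, passed at no time. Its levels in all 30 libraries lay between 8.33 and 16.5 CPM, and C59 and DMSO overlapped at all 5 times. Its log2 fold changes, from the earliest time to the latest, were -0.14 ± 0.15, -0.01 ± 0.11, 0.18 ± 0.14, 0.17 ± 0.13 and 0.04 ± 0.11 (SE). Leaving out C59 12 h replicate 1, the lowest C59 library at 12 h, gave 0.34 (edgeR, adjusted p 0.0384), and leaving out replicate 3, the highest, gave 0.06 (edgeR, adjusted p 0.759). At 18 h it was 0.13 without C59 18 h replicate 3 (edgeR, adjusted p 0.485).

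**Figure D3:**
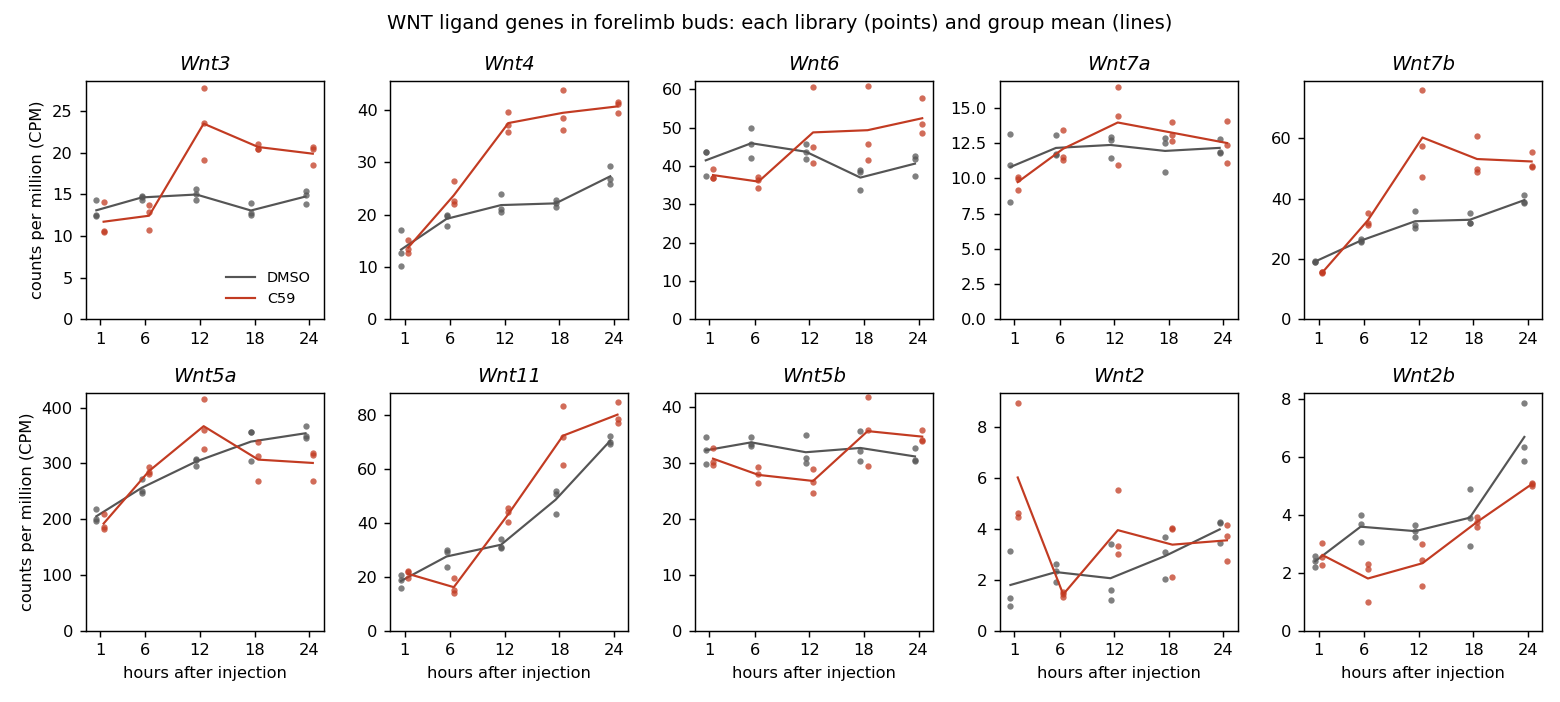
Each point is the CPM of 1 library and lines join the group means of DMSO (gray) and C59 (red) over the hours after injection, for the 5 ectodermal ligand genes (upper row) and the other 5 (lower row), with each vertical axis starting at 0. From 12 h on C59 lies above DMSO without overlap for *Wnt3*, *Wnt4* and *Wnt7b*, as it already does at 6 h for *Wnt4* and *Wnt7b*, and the groups overlap throughout for *Wnt7a*, and the *Wnt11* lines cross between 6 and 12 h.

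The summed surface ectoderm markers were higher in C59 from 12 h on, as were *Wnt3*, *Wnt4* and *Wnt7b*, though *Wnt4* and *Wnt7b* already stood higher at 6 h. Of 12 markers (*Epcam*, *Cdh1*, *Krt8*, *Krt18*, *Krt14*, *Krt5*, *Krt15*, *Perp*, *Esrp1*, *Trp63*, *Cldn6* and *Tfap2c*), 8 passed as higher and 1 as lower at 12 h, then 6 and 1 at 18 h, and 4 and 0 by 24 h. At 6 h 1 passed as higher and 3 as lower, and none passed at 1 h. Among all tested genes, 2.75% passed in either direction at 1 h, 19.6% at 6 h and 47.5% at 12 h. The shares were 7.08% at 18 h and 6.44% at 24 h. No marker was at 0 in any group, and from 6 h on the median log2 fold changes were -0.03, 0.39, 0.42 and 0.20. The 12 markers summed to 138 to 140 FPKM in C59 and 130 to 151 FPKM in DMSO at 6 h, a time at which the groups overlapped. At 12 h they summed to 185 to 253 FPKM against 132 to 147, by 18 h to 176 to 215 against 136 to 146, and at 24 h to 210 to 228 against 168 to 175 FPKM, without overlap. Sums of other lists also stood above DMSO at 12 h without overlap. Macrophage markers summed to 24.3 to 27.0 FPKM in C59 against 13.4 to 14.9 in DMSO, and endothelial markers to 94.1 to 107 against 71.95 to 82.3. Crest and Schwann precursor markers summed to 16.0 to 24.0 FPKM against 7.21 to 10.35. Limb mesenchyme and apical ridge markers lay below DMSO then, and erythroid markers overlapped. Macrophage markers stayed above at 18 and 24 h. In bulk limb buds a larger number of ectodermal cells and more RNA in each of them cannot be told apart.

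Setting each ectodermal ligand gene against the summed markers of its own library gave different pictures for the 5 genes. *Wnt7b* was 6.86 to 8.06% of the marker sum in C59 and 5.31 to 6.34% in DMSO at 12 h, and 6.98 to 7.69% against 5.71 to 6.31% at 18 h. *Wnt4* was 2.99 to 3.76% in C59 and 2.62 to 2.89% in DMSO at 12 h, and 3.61 to 4.06% against 2.82 to 2.92% at 18 h. For *Wnt3* the ranges were 2.66 to 3.13% in C59 and 2.50 to 2.59% in DMSO at 12 h, and 2.601 to 2.93% against 2.23 to 2.38% at 18 h. Relative to the markers, these 3 genes thus stood above DMSO in every C59 library of 12 and 18 h, by less than in CPM. At 24 h *Wnt4* (3.45 to 3.63% against 2.84 to 3.24%) and *Wnt7b* (6.28 to 6.69% against 5.88 to 6.16%) did so too, while the ranges of *Wnt3* overlapped (2.18 to 2.56% against 2.04 to 2.24%). The order was the opposite for *Wnt6* at 12 h, which was 8.17 to 8.85% of the sum in C59 and 10.49 to 11.3% in DMSO. *Wnt7a* was 1.52 to 1.85% in C59 and 2.02 to 2.16% in DMSO at 12 h, 1.66 to 1.78% against 1.84 to 2.27% at 18 h, and 1.34 to 1.63% against 1.68 to 1.82% at 24 h. *Krt5* alone made up 29.4% of the marker sum on average. These ratios are descriptions, and the part of the ectoderm in the CPM results was not tested.

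**Figure D4:**
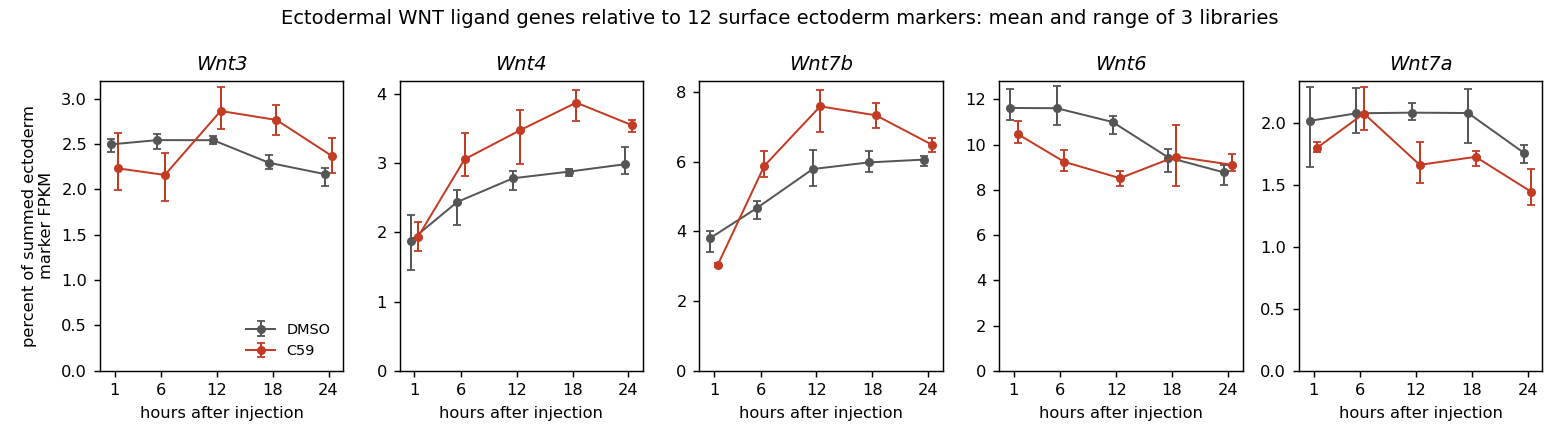
Points are the mean FPKM of a ligand gene as a percent of the summed FPKM of 12 surface ectoderm markers in the same library, bars span the 3 libraries, and DMSO is gray and C59 red. At 12 h C59 lies above DMSO for *Wnt3*, *Wnt4* and *Wnt7b* and below it for *Wnt6* and *Wnt7a*.

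Of *Wnt5a* and *Wnt11*, grouped above as mesenchymal, *Wnt11* had the larger log2 fold change of C59 against DMSO, -0.78 at 6 h. Those of *Wnt2* at 1 h (1.70) and *Wnt2b* at 6 h (-1.01), described below, were larger still but rest on few counts. *Wnt11* (ENSMUSG00000015957, chr7:98835112-98855195, plus strand) encodes a mostly non-canonical ligand of cell movement and of the branching ureteric bud. At 6 h its C59 libraries were at 15.1, 19.6 and 13.9 CPM and its DMSO libraries at 29.4, 23.5 and 29.8 CPM, without overlap. The fall was -0.78 ± 0.12 (edgeR, adjusted p 0.000574). At 12 h the order had turned, with 44.0, 40.4 and 45.7 CPM in C59 and 30.8, 34.1 and 30.9 CPM in DMSO (0.44 ± 0.07, edgeR, adjusted p 0.000459). At 18 h C59 was at 61.6, 72.0 and 83.6 CPM and DMSO at 51.9, 50.8 and 43.2 CPM (0.59 ± 0.13, edgeR, adjusted p 0.0310). The difference at 18 h passed without C59 18 h replicate 3 (0.47, adjusted p 0.0161), but not without DMSO 18 h replicate 1 (0.64, adjusted p 0.0913), replicate 2 (0.62, adjusted p 0.0926) or replicate 3 (0.52, adjusted p 0.151), or C59 18 h replicate 2 (0.60, adjusted p 0.0932). At 24 h C59 libraries (77.1 to 84.8 CPM) still lay above DMSO libraries (69.2 to 72.4 CPM), with a value of 0.19 ± 0.06 (edgeR, adjusted p 0.0977).

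*Wnt5a* (ENSMUSG00000021994, chr14:28504750-28527448, plus strand) moved little for its level. At 12 h it was at 325, 360 and 415 CPM in C59 and at 296, 308 and 306 CPM in DMSO, and the difference on the log2 scale was 0.27 ± 0.07 (edgeR, adjusted p 0.0103). Without C59 12 h replicate 3, the highest library, it was 0.19 (adjusted p 0.0152). At 6 h it was at 294, 285 and 280 CPM against 247, 272 and 250 CPM (0.16 ± 0.05, edgeR, adjusted p 0.0338). The groups did not overlap, but the rise did not pass without DMSO 6 h replicate 1 (0.13, adjusted p 0.0892) or replicate 3 (0.14, adjusted p 0.121), or C59 6 h replicate 1 (0.14, adjusted p 0.138), replicate 2 (0.16, adjusted p 0.0795) or replicate 3 (0.18, adjusted p 0.0631). At 18 h the groups overlapped (-0.13 ± 0.11, edgeR, adjusted p 0.524; -0.04 without C59 18 h replicate 3). At 24 h its C59 libraries (269, 319 and 315 CPM) lay below those of DMSO (367, 349 and 346 CPM), with a value of -0.23 ± 0.07 (edgeR, adjusted p 0.0631). An antisense gene, *Gm2670*, shares 358 exonic bases with *Wnt5a* (4.6% of its exons) and had at most 437 counts in a library, so reads of the pair may be mixed there.

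*Wnt5b* (ENSMUSG00000030170, chr6:119432531-119544347, minus strand), a relative of *Wnt5a* known from cartilage growth, was lower in C59 at the early times. It was at 26.3, 29.2 and 27.9 CPM against 34.6, 33.0 and 33.4 CPM at 6 h (-0.28 ± 0.07, edgeR, adjusted p 0.00946). At 12 h it was at 26.6, 29.0 and 24.7 CPM against 30.8, 29.9 and 34.9 CPM (-0.25 ± 0.09, edgeR, adjusted p 0.0358). The value at 6 h did not pass without C59 6 h replicate 1 (-0.24, adjusted p 0.0574). That at 12 h did not pass without DMSO 12 h replicate 1 (-0.28, adjusted p 0.0615) or replicate 3 (-0.18, adjusted p 0.139), or C59 12 h replicate 1 (-0.24, adjusted p 0.0792) or replicate 3 (-0.18, adjusted p 0.129), or with upper-quartile in place of TMM factors (-0.17, adjusted p 0.130). The values were 0.15 ± 0.14 at 18 h (edgeR, adjusted p 0.552; 0.02 without C59 18 h replicate 3, adjusted p 0.910) and 0.16 ± 0.07 at 24 h (edgeR, adjusted p 0.211).

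Markers of limb mesenchyme fell while *Wnt5a* stood above DMSO. Of 10 such markers (*Prrx1*, *Prrx2*, *Twist1*, *Pdgfra*, *Tbx5*, *Msx1*, *Hand2*, *Lhx2*, *Lhx9* and *Lmx1b*) 7 passed as lower and 1 as higher at 6 h, and 8 as lower and 2 as higher at 12 h. Of all tested genes, 19.6% passed in either direction at 6 h and 47.5% at 12 h. These shares also stand beside the counts of cartilage and ridge markers that follow. Their summed FPKM was 527 to 552 in C59 and 737 to 777 in DMSO at 6 h, and 518 to 531 against 712 to 746 at 12 h, and none was at 0. RNA of condensing cartilage markers was higher in C59 at 12 h. Of 7 cartilage markers (*Sox9*, *Sox5*, *Sox6*, *Col2a1*, *Acan*, *Matn1* and *Col9a1*) 6 were higher and 0 lower at 12 h, and their sum was 351 to 475 FPKM in C59 and 174 to 183 FPKM in DMSO. Of 10 genes marking the apical ridge, 9 were tested at 6 h and 5 of them were lower, with sums of 27.1 to 28.8 FPKM in C59 and 45.6 to 51.7 FPKM in DMSO. None of the markers of the 3 lists was at 0. In bulk limb buds a change in the number of such cells and a change of marker RNA in each cell cannot be told apart. The part of these tissues in the values of *Wnt5a*, *Wnt5b* and *Wnt11* was not tested.

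*Wnt2* and *Wnt2b*, related canonical ligand genes known together from the specification of the lung, were the lowest of the 10 genes and carried the calls of C59 against DMSO at single times. *Wnt2* (ENSMUSG00000010797, chr6:17988940-18030585, minus strand) was at 8.94, 4.62 and 4.47 CPM in C59 at 1 h and at 0.983, 1.27 and 3.13 CPM in DMSO, without overlap. The log2 fold change was 1.70 ± 0.35 (edgeR, adjusted p 0.0180). The call rests on few counts, 378 in the 3 C59 libraries and 136 in the 3 DMSO libraries. It was lost without C59 1 h replicate 1, the highest library (1.28, adjusted p 0.111), without DMSO 1 h replicate 1 (1.41, adjusted p 0.0666) or replicate 2 (1.51, adjusted p 0.0835), and with DESeq2 (adjusted p 0.0829). At 6 h *Wnt2* was at 1.42, 1.32 and 1.53 CPM in C59 and at 2.62, 1.93 and 2.36 CPM in DMSO (-0.70 ± 0.24, edgeR, adjusted p 0.0589), and it passed without DMSO 6 h replicate 2 (-0.81, adjusted p 0.0448). At 12 h it was at 2.996, 3.32 and 5.52 CPM against 1.60, 3.396 and 1.19 CPM (0.94 ± 0.37, edgeR, adjusted p 0.0543). Without DMSO 12 h replicate 2, the only DMSO library above 3 CPM, the value was 1.49 (adjusted p 0.00497), and leaving out C59 12 h replicate 1 gave 1.11 (adjusted p 0.0404). Without C59 12 h replicate 3, the highest library, it was 0.63 (adjusted p 0.205). At 18 h the value was 0.25 ± 0.31 (edgeR, adjusted p 0.659). Leaving out C59 18 h replicate 3 gave 0.11 (adjusted p 0.852).

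*Wnt2b* (ENSMUSG00000027840, chr3:104945272-104961921, minus strand) fell at 6 h to 0.993, 2.31 and 2.12 CPM, from 3.70, 4.01 and 3.07 CPM in DMSO. The log2 fold change of -1.01 ± 0.28 (edgeR, adjusted p 0.0198) stood just beyond the threshold of 1. Without C59 6 h replicate 1, the lowest library, it was -0.70 (adjusted p 0.0696), and with upper-quartile factors the gene was not called. At 12 h C59 libraries (2.996, 2.44 and 1.56 CPM) were again all below DMSO libraries (3.64, 3.45 and 3.22 CPM), with a value of -0.57 ± 0.25 (edgeR, adjusted p 0.0818). Leaving out C59 12 h replicate 1 gave -0.76 (adjusted p 0.0357), and leaving out replicate 3, the lowest library, gave -0.34 (adjusted p 0.249). At 18 h the value was -0.06 ± 0.21 (edgeR, adjusted p 0.892; -0.10 without C59 18 h replicate 3) and at 24 h -0.39 ± 0.15 (edgeR, adjusted p 0.146), when C59 libraries held 5.003 to 5.09 CPM and DMSO libraries 5.86 to 7.87 CPM.

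Whether the effect of C59 itself changed between times was tested as an interaction. From 6 to 12 h the effect rose for 6 of the 10 ligand genes and fell for none, where 18.1% of all tested genes passed in either direction. The sexes were unbalanced at 6 h, so the part of sex in this change cannot be told apart from the treatment. *Wnt2* (1.64 ± 0.47, edgeR, adjusted p 0.0232) and *Wnt11* (1.21 ± 0.16, edgeR, adjusted p 6.76e-05) were called, against 1.89% of all genes. The effect also rose for *Wnt3* (0.89 ± 0.17, edgeR, adjusted p 0.00182), *Wnt7b* (0.56 ± 0.18, edgeR, adjusted p 0.0382), *Wnt6* (0.52 ± 0.16, edgeR, adjusted p 0.0301) and *Wnt4* (0.48 ± 0.12, edgeR, adjusted p 0.0115). Values for the remaining members were 0.44 ± 0.39 for *Wnt2b*, 0.19 ± 0.18 for *Wnt7a*, 0.12 ± 0.09 for *Wnt5a* and 0.03 ± 0.11 for *Wnt5b*. *Wnt3*, *Wnt4* and *Wnt11* also passed when each of the 12 libraries in turn was left out, but *Wnt4* did not with the spread shared by all 30 libraries (adjusted p 0.0502), nor did *Wnt2* (adjusted p 0.0564). *Wnt6* did not pass with limma on log2(FPKM + 1) or + 0.1 (adjusted p 0.0507 and 0.0501). *Wnt2* did not pass without DMSO 6 h replicate 1, C59 6 h replicate 2, DMSO 12 h replicate 1 or 3, or C59 12 h replicate 3 (adjusted p 0.0504 to 0.0593), nor *Wnt6* without DMSO 6 h replicate 3, C59 6 h replicate 1 or 2, or DMSO 12 h replicate 1 (0.0551 to 0.0697). *Wnt7b* did not pass once any DMSO library of 6 h was left out, without C59 6 h replicate 1 or 3, or without DMSO 12 h replicate 1 or 2 (adjusted p 0.0532 to 0.0879), and its value was 0.38 without C59 12 h replicate 3. With TMM factors and each comparison on its own libraries, edgeR passed no member from 12 to 18 h or from 18 to 24 h, where 8.49% and 6.96% of all genes did. At an unadjusted p below 0.05 were *Wnt5a* (-0.40 ± 0.14) and *Wnt5b* (0.41 ± 0.18) from 12 to 18 h, and *Wnt4* (-0.28 ± 0.12), *Wnt7b* (-0.31 ± 0.13) and *Wnt11* (-0.41 ± 0.15) from 18 to 24 h. From 12 to 18 h *Wnt5a* passed with limma on log2(FPKM + 1) (-0.49, adjusted p 0.0376), with upper-quartile factors (-0.44, edgeR, adjusted p 0.0497) and with a spread shared by all 30 libraries (-0.42, edgeR, adjusted p 0.0147). *Wnt5b* passed with the shared spread (0.38, edgeR, adjusted p 0.0414), and *Wnt11* from 18 to 24 h without C59 18 h replicate 1 (-0.51, adjusted p 0.0391).

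In control limb buds, 6 of the 10 ligand genes rose between 1 and 24 h and none fell. The sexes were not balanced across these times either. The 4 Y-linked genes summed to at most 9.03 FPKM at 1 h, 0 at 6 h, and 38.6, 21.0 and 20.1 FPKM at 12, 18 and 24 h. The part of sex in the control course and its steps was not tested. *Wnt11* rose from 20.7, 18.9 and 15.9 CPM to 70.0, 69.2 and 72.4 CPM, a log2 fold change of 1.94 ± 0.08 (edgeR, adjusted p 7.51e-11). *Wnt2b* went from 2.59, 2.40 and 2.21 CPM to 7.87, 5.86 and 6.34 CPM (1.47 ± 0.17, edgeR, adjusted p 4.26e-06). *Wnt2* (1.09 ± 0.31, edgeR, adjusted p 0.00793), *Wnt7b* (1.05 ± 0.07, edgeR, adjusted p 1.02e-08) and *Wnt4* (1.03 ± 0.13, edgeR, adjusted p 1.22e-05) were also called, and *Wnt5a* passed with 0.79 ± 0.05 (edgeR, adjusted p 4.07e-09). Over this interval 59.3% of all tested genes passed and 12% were called, so that the 6 members that passed are near the share of all genes and the 5 called are above theirs. *Wnt3* (0.17 ± 0.10), *Wnt7a* (0.18 ± 0.14), *Wnt5b* (-0.05 ± 0.07) and *Wnt6* (-0.02 ± 0.08) did not pass, though *Wnt7a* did without DMSO 1 h replicate 1 (0.35, adjusted p 0.0370). Of the ectodermal ligand genes, *Wnt4* and *Wnt7b* therefore rose with age and *Wnt3*, *Wnt6* and *Wnt7a* did not pass, while 7 of the 12 ectoderm markers fell, 4 rose and their summed level went from 117 to 138 FPKM at 1 h to 168 to 175 FPKM at 24 h.

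Step by step, from 1 to 6 h in DMSO *Wnt11* (0.58 ± 0.11, edgeR, adjusted p 0.0102), *Wnt7b* (0.45 ± 0.07, edgeR, adjusted p 0.00305) and *Wnt5a* (0.32 ± 0.06, edgeR, adjusted p 0.00585) passed, where 5.67% of genes did. *Wnt11* did not pass without DMSO 6 h replicate 3 (0.52, adjusted p 0.0625), and *Wnt4* passed without DMSO 1 h replicate 1 (0.73, adjusted p 0.00874). From 6 to 12 h *Wnt5a* passed (0.25 ± 0.05, edgeR, adjusted p 0.0209), against 2.97% of genes. *Wnt7b* was at 0.32 (edgeR, adjusted p 0.0523) and passed with DESeq2 (adjusted p 0.0434), upper-quartile factors (adjusted p 0.0394) or no filter (adjusted p 0.0362). *Wnt5a* did not pass with either limma fit (adjusted p 0.0588 and 0.0570) or the shared spread (adjusted p 0.133), and it no longer passed when DMSO 6 h replicate 1 or 3 or any of the 3 DMSO 12 h libraries was left out (0.22 to 0.27, adjusted p 0.0658 to 0.114). From 12 to 18 h *Wnt11* rose again (0.61 ± 0.08, edgeR, adjusted p 0.00537), where 7.35% of genes passed, and without DMSO 18 h replicate 1 *Wnt5a* (0.23, adjusted p 0.00351) and *Wnt6* (-0.29, adjusted p 0.0253) passed too. From 18 to 24 h *Wnt11* (0.51 ± 0.07, edgeR, adjusted p 0.00290), *Wnt4* (0.28 ± 0.07, edgeR, adjusted p 0.0393) and *Wnt7b* (0.24 ± 0.06, edgeR, adjusted p 0.0413) rose, where 9.69% of genes passed. *Wnt4* and *Wnt7b* no longer passed when any of the 5 libraries other than DMSO 18 h replicate 1 was left out (0.21 to 0.32, adjusted p 0.0509 to 0.136). *Wnt2b* passed without DMSO 18 h replicate 1 (0.70, adjusted p 0.0272) or replicate 2 (0.95, adjusted p 0.0258), and *Wnt2* without replicate 1 (0.68, adjusted p 0.0499). The DMSO groups also serve as the controls of the C59 comparisons, so the control course and the C59 effects are not independent.

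The other WNT genes summed to 5.24 to 7.94 FPKM in DMSO libraries, and 6 of the 9 were tested at each time. *Wnt9b*, an ectodermal ligand gene, had log2 fold changes like those of *Wnt3*, *Wnt4* and *Wnt7b*. They were 0.07 ± 0.11 at 6 h, then 0.98 ± 0.15 at 12 h (edgeR, adjusted p 0.000404), 0.91 ± 0.15 by 18 h (edgeR, adjusted p 0.00955) and 0.59 ± 0.13 by 24 h (edgeR, adjusted p 0.0192). *Wnt9a*, known from joints, was higher at 6 h (0.56 ± 0.17, edgeR, adjusted p 0.0322) and 12 h (0.72 ± 0.19, edgeR, adjusted p 0.0102). At 6 h *Wnt10a* (-0.83 ± 0.25, edgeR, adjusted p 0.0306), *Wnt10b* (-0.76 ± 0.17, edgeR, adjusted p 0.00629) and *Wnt16* (-0.81 ± 0.27, edgeR, adjusted p 0.0473) were lower. *Wnt3a*, which had at most 4.71 CPM in any library, was called at 24 h (1.00 ± 0.21, edgeR, adjusted p 0.0156). *Wnt1* and *Wnt8b* were never tested and had at most 0.333 CPM in a library.

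Genes of ligand release and of ligand reception were read for comparison. Of 6 tested genes of acylation and release, 2 passed as lower at 6 h, 4 did by 12 h, and none passed as higher. Of all tested genes, 19.6% passed in either direction at 6 h and 47.5% at 12 h. The same shares stand beside the counts of the other lists below. At 18 and 24 h the shares were 7.08% and 6.44%. *Porcn*, which encodes porcupine, is X-linked and was not among the tested genes. *Porcn* was at 3.47 to 4.25 FPKM in C59 and 2.31 to 3.28 FPKM in DMSO at 12 h, and at 3.31 to 3.47 FPKM against 2.39 to 3.21 FPKM at 18 h, without overlap, and the groups overlapped at 1, 6 and 24 h. *Wls*, which encodes the carrier Wntless, stood at -0.07 ± 0.04 at 6 h and 0.07 ± 0.05 at 12 h and did not pass. *Notum*, whose product strips the lipid from WNT proteins and which is itself a WNT target, fell by 3.42 ± 0.27 at 6 h (edgeR, adjusted p 1.87e-06) and by 3.75 ± 0.28 at 12 h (edgeR, adjusted p 3.12e-06). At 6 h, 3 of 16 receptor and co-receptor genes passed as higher and 3 as lower, and by 12 h 7 did as higher and 5 as lower. The Frizzled gene *Fzd10* fell by 1.99 ± 0.05 at 6 h (edgeR, adjusted p 9.84e-12), and *Fzd5* rose by 1.51 ± 0.13 at 12 h (edgeR, adjusted p 1.03e-05). *Ror2*, the main receptor of *Wnt5a*, fell by 0.27 ± 0.05 at 6 h and by 0.21 ± 0.06 at 12 h. *Wls* and *Ror2* are named for their known roles and with their values in view. All 12 canonical targets of the list passed as lower at 6 h, 11 of them at 12 h, then 4 by 18 h and 2 by 24 h, and none passed as higher at the 5 times. At 18 and 24 h, when *Axin2* did not pass, *Wnt3*, *Wnt4* and *Wnt7b* were still higher.

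For each member the gene with the most similar pattern was sought among 12540 genes, by Pearson's r of log2 CPM over the 10 group means. The points share the DMSO groups and a common course over time, so r is a description only. *Wnt7b* was most like *Enpp2* (0.994), *Wnt11* like the smooth muscle light chain gene *Myl9* (0.990), *Wnt4* like the basal keratin gene *Krt5* (0.985) and *Wnt3* like *Trp63*, the epidermal transcription factor (0.966). *Wnt5a* was most like *Rgs16* (0.973), *Wnt7a* like *Fam241b* (0.965), *Wnt2b* like *Frmd6* (0.964), *Wnt5b* like the clock repressor gene *Nr1d1* (0.944), *Wnt2* like *Mpv17l* (0.929) and *Wnt6* like *Inafm2* (0.928). Over the 30 single libraries the same gene came out on top for 3 of the 10 members, *Wnt3*, *Wnt4* and *Wnt11*. Among the members themselves, *Wnt4* and *Wnt7b* were most alike (0.978), and *Wnt5a* and *Wnt5b* least (-0.165).

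Finally, promoters were searched for the core of the site bound by TCF and LEF factors, the DNA partners of β-catenin, because canonical targets fell at 6 h. RefSeq promoters (GRCm38.p6, 250 bases before to 50 after a start site) matched 8 of the 10 genes with 11 promoters, and *Wnt5a* and *Wnt7b* had no entry. The letters CTTTGA, on either strand, occurred in 2 of the 11 promoters, and in 16.0% of all 32851 promoters of the same length. They are shown with 12 bases on either side and the match in capitals.
Wnt11, plus strand, chr7:98835050-98835079: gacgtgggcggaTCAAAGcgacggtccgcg
Wnt5b, minus strand, chr6:119449440-119449469: gagtaagtctctCTTTGAtctgctccctgt

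The match began 50 bases before the start site in *Wnt11* and 71 bases before it in 1 of the *Wnt5b* promoters. Both genes fell at 6 h, and so did *Axin2* (-1.97 ± 0.06, edgeR, adjusted p 7.55e-11), which had no match in its window. *Wnt2b* and *Wnt6* also fell at 6 h and had no match, and 2 of 11 promoters is near the share of all promoters. A match in these letters is a description of the sequence and not of binding.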

How the data were processed

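Libraries of RNA from 30 forelimb bud pairs were sequenced as paired ends. Per the study's methods and the submitters' notes, the authors trimmed reads with cutadapt 1.16, aligned them with STAR 2.7.0e to mm10 with a custom annotation and deposited raw counts per gene for autosomes, with replicates separate. The strand setting of the counting is not given in the sources used here. The deposited FPKM values came from Cufflinks 2.2.1, run by the authors as unstranded. The 10 members and all gene lists were chosen with earlier results of these data known.

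Protein-coding genes (GENCODE M21) were tested with edgeR 4.0.16 (R 4.3.3), two-sided quasi-likelihood tests with TMM factors and a minimum count of 10, in 13 comparisons, each on its own libraries. SE is the log2 fold change over the root of F. All members were named; other lists by counts and called genes of largest change. The code was tested on simulated data. Alternatives were DESeq2 1.42.0, limma 3.58.1 on log2(FPKM + 1) or + 0.1, other factors, filters and gene sets, a shared spread, a replicate block and leaving out each library.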

Additional observations from a re-analysis of the deposited data

Results flagged for a closer look

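The effect of C59 differed between 6 and 12 h for 6 ligand genes, by the interaction test of edgeR over the 12 libraries of both times. The difference in log2 fold change, 12 h minus 6 h, was 1.64 for *Wnt2* (adjusted p 0.0232), from -0.70 to 0.94, and 1.21 for *Wnt11* (adjusted p 6.76e-05), from -0.78 to 0.44. It was 0.89 for *Wnt3* (adjusted p 0.00182) and 0.52 for *Wnt6* (adjusted p 0.0301), whose C59 libraries also lay below DMSO at 6 h. *Wnt7b* (0.56, adjusted p 0.0382) and *Wnt4* (0.48, adjusted p 0.0115) were already higher in C59 at 6 h. Over the same 2 times the summed ectoderm markers went from overlapping groups to 185 to 253 FPKM in C59 against 132 to 147 FPKM in DMSO, and the canonical target *Axin2* had a difference of 0.51 ± 0.09 (adjusted p 0.000741). Their part in these differences was not tested, and that of sex, which was unbalanced at 6 h, cannot be told apart from the treatment. No group held the 4 libraries needed to look for a library outlying from its group.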

How the results depend on the processing

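Across all alternatives and left-out libraries no log2 fold change of a member that passed the test turned its direction. The numbers of called members (adjusted p below 0.05 and log2 fold change beyond 1) were small and moved with the setting. Without a minimum fold change they were 7 in place of 1 at 6 h, 6 in place of 0 at 12 h, 4 in place of 0 at 18 and at 24 h, 6 in place of 2 for the change from 6 to 12 h, and 3, 1, 1 and 3 in place of 0 for the 4 steps of the DMSO course. With DESeq2 and both limma fits the call of *Wnt2* at 1 h was lost (0 in place of 1). At 6 h upper-quartile factors and both limma fits gave 0 in place of 1, and at 12 h upper-quartile factors gave 1 in place of 0. For the change from 6 to 12 h a spread shared by all 30 libraries and limma on log2(FPKM + 1) each gave 1 in place of 2. For DMSO 24 h against 1 h limma on log2(FPKM + 1) gave 1 in place of 5. Leaving out single libraries gave 0 to 1 calls at 1 h and at 6 h, 0 to 2 at 12 h, 1 to 3 for the change from 6 to 12 h, and 3 to 5 for DMSO 24 h against 1 h, where the lowest count came without DMSO 1 h replicate 2. The order of the genes by level kept 63% of its ranks with counts per kilobase. The cause of these shifts was not tested, except that a lower fold limit must admit more genes.

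The spread shared by all 30 libraries ended the results at 6 h of *Wnt4*, *Wnt5a*, *Wnt5b* and *Wnt6* (adjusted p 0.0516 to 0.238) and that of *Wnt6* at 24 h (adjusted p 0.0725), and *Wnt6* passed with it at 18 h (adjusted p 0.0106). Both limma fits ended the results of *Wnt4*, *Wnt5a* and *Wnt5b* at 6 h (adjusted p 0.0611 to 0.104), of *Wnt5b* at 12 h (0.102 and 0.108) and of *Wnt11* at 18 h (0.0773 and 0.0782) and from DMSO 1 to 6 h (0.0625 and 0.0647), and *Wnt2b* passed from DMSO 18 to 24 h with DESeq2 (adjusted p 0.0103). *Wnt5a* passed at 24 h with DESeq2 (adjusted p 0.0259) and *Wnt2* at 12 h with DESeq2 (adjusted p 0.0245).

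The replicate numbers did not pair the libraries: deviations of same-numbered C59 and DMSO libraries correlated at -0.27 to 0.16 over 15 pairs. With the replicate block the called members were 1, 1, 0, 0 and 0 at the 5 times and 2 for the change from 6 to 12 h, as without it, and those passing were 6 in place of 7 at 6 h, 5 in place of 6 at 12 h, 3 in place of 4 at 18 h, 2 in place of 1 for DMSO 12 h against 6 h and 1 in place of 3 for DMSO 24 h against 18 h. *Wnt2* and *Wnt2b* had the fewest counts of the 10 genes (at most 203 for *Wnt2* in a library), so depth limits their values most.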
